A study of Homo sapiens with 22 samples.

Results

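H520, an established line of squamous cell carcinoma of the human lung, was transfected with a pool of luciferase reporter plasmids, and the transcripts of that pool are described here for cells that received only the vehicle, DMSO (dimethyl sulfoxide). The 7 libraries used were the 5 H520 DMSO transfections, the H520 plasmid input (1 library) and, as a check, the plasmid input sequenced for A549, a lung adenocarcinoma line. The labels title the H520 input v2 and the A549 input v1, and what sets these versions apart was not settled here. The series holds 22 libraries in all, and its other H520 and A549 transfections were given DMSO or benzo(a)pyrene (BaP, a hydrocarbon of tobacco smoke) at 10 µM for 42 h in H520 and 18 h in A549. A tag was used if it had at least 100 counts in each input, which 211385 of the 237609 listed tags had. Each tag has 15 bases, a variable stretch of 12 followed by 3 constant ones. Since 1 reporter can carry several tags, and the table that ties tags to cloned fragments was not used here, numbers of tags do not translate into numbers of fragments, and tags of 1 fragment share its activity.

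In a massively parallel reporter assay of this kind, a DNA fragment is cloned beside a reporter gene, and a tag in the transcribed part of the plasmid identifies the fragment after sequencing. The abundance of a tag in RNA, divided by its abundance in the plasmid pool, measures how much transcript each plasmid yields. That yield reflects transcription from the fragment and also any effect of the tag's own bases on the transcript or on its amplification. Squamous and adenocarcinoma lines differ in the transcription factors they express, and so the same pool is commonly read in more than 1 line. The files hold tags and no endogenous genes, so the label of the cell line could not be compared with marker genes.

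Activity was the log2 ratio of RNA TPM (tags per M of counts) to H520 input TPM, each plus a pseudocount of 0.5, minus the median of that library. An activity of 0 is therefore the typical tag, 1 is 2-fold above it and -1 is 2-fold below it. The pseudocount is worth 133 counts in the H520 input and pulls rare tags toward 0. The 5 RNA libraries held 179.3 to 331.7 M counts, the H520 input 265.8 M and the A549 input 333.5 M, and the median tag had 648 to 1187 RNA counts. The labels do not tie the transfections to separate cultures, so a p-value measures only the spread between these libraries. Activity of a tag had a median SD between transfections of 0.138 where the lesser input count was 100 to 200, and of 0.0693 from 2000 counts upward. Just outside the minimum, 1169 tags with a lesser input count of 90 to 99 had a median activity of 0.04. Just inside it, 1160 tags within 10 counts of it had a median of 0.06.

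The tags at both ends of the distribution are shown first, since their bases differ in a visible way. All are written 5′ to 3′ as the files list them, without regard to the strand of the transcript, which the labels and headers do not state. Capitals mark GGTAAGT, the 7-base word with the lowest median activity, where a tag holds it. No stretch of the highest tags is singled out. The first 6 are the lowest and the next 6 the highest among called tags with at least 500 counts in each input, ranked by the less extreme of the values from either input.
Low tag 1: GGTAAGTaagcgggc
Low tag 2: atcaGGTAAGTaggc
Low tag 3: GGTAAGTtactaggc
Low tag 4: aGGTAAGTatcgggc
Low tag 5: GGTAAGTtacggggc
Low tag 6: ataacGGTAAGTggc
High tag 1: gccattccgagaggc
High tag 2: ctggcgtactgaggc
High tag 3: ggcgagcgttaaggc
High tag 4: ctaccgattcggggc
High tag 5: ccggattatcgaggc
High tag 6: gccatttcttagggc

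Most tags gave RNA in proportion to plasmid. A mean activity between -0.5 and 0.5 was found for 201691 tags, 95.4% of those used. Against the A549 input, 176176 tags (83.3%) lay between these limits. The 5th and 95th percentiles of a library lay at -0.39 ± 0.01 and 0.44 ± 0.01 (SD, n = 5). The distribution was not symmetric. The highest 0.1% of tags began at 3.10 ± 0.07 and the lowest 0.1% ended at -0.87 ± 0.11 (SD, n = 5), so the upper tail ran much farther out than the lower one. Beyond 0.5, the number of tags per step of 0.1 fell up to about 2 and rose again between about 2 and 3. It rose from 46 to 92, 39 to 98, 54 to 103, 31 to 102 and 58 to 86 in transfections 1 to 5. Across tags, activities of 2 libraries had Pearson r values of 0.851 to 0.909 over 10 pairs, a description in which both members of a pair share the input.

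**Figure D1:**
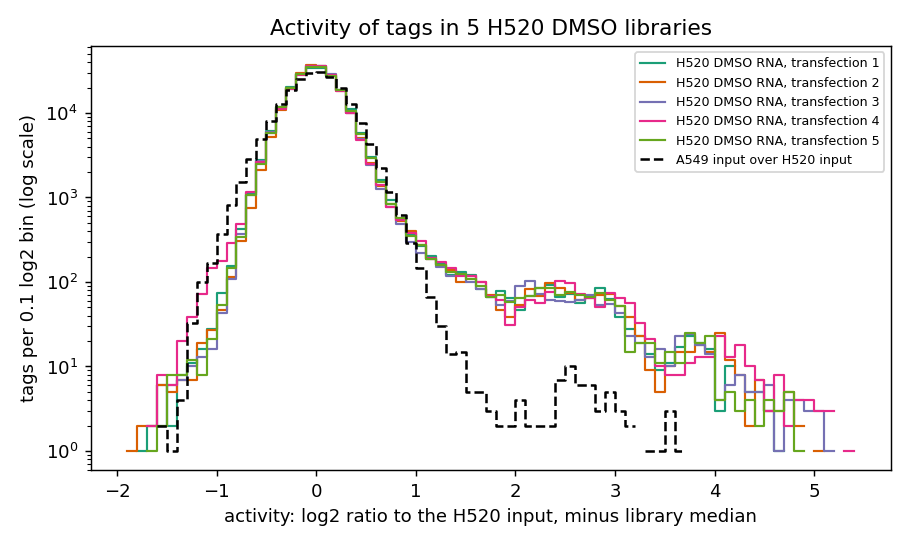
The number of tags (log scale) in each step of 0.1 is plotted against activity for the 5 H520 DMSO libraries, with the ratio of the A549 input to the H520 input as a dashed line. The RNA libraries keep a long tail to the right, up to 5.31, while the input ratio is wider in the middle and ends at 3.61.

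The test asked which tags were more than 2-fold from the library median, against the H520 input. By edgeR's glmTreat at an adjusted p of 0.05, 1599 tags (0.756% of the 211385 tested) were above it and 22 (0.0104%) were below it. At an unadjusted p of 0.05 the counts were 2134 and 59. The called tags above had a median activity of 2.17 and ranged from 1.15 to 5.00, and those below ranged from -1.64 to -1.21. The input was a single library, and the fit assumes that it varies like the RNA libraries. With the A549 input in its place, 1953 tags (0.924%) were called above and 161 (0.0762%) below. Of the 1599 tags above, 1382 were called with both inputs, 86.4% of the list from the H520 input and 70.8% of that from the A549 input. On the low side 17 were shared, 77.3% of the first list but 10.6% of the second, so the length of the low list depends on which plasmid library is the reference.

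The inputs also differed from each other. The log2 ratio of the A549 input to the H520 input, centred in the same way, lay at or beyond 1 for 348 tags and at or below -1 for 310. Its 5th to 95th percentile distance was 0.976, wider than the 0.838 ± 0.0185 (SD, n = 5) of H520 RNA against the H520 input. Against the A549 input, mean activity spread further. Its percentile distance was 1.22, against 0.764 for mean activity with the H520 input. With the A549 input, 2978 tags were at 1 or more and 555 at -1 or less. Against the H520 input those counts were 2179 and 54. Of the 2179, 1820 were at 1 or more against both inputs, and of the 54, 41 were at -1 or less against both. Mean activities from the 2 inputs had a Pearson r of 0.687 across tags, which share the RNA libraries.

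The upper tail was a small part of the pool and a larger part of the RNA. The 2179 tags at 1 or more were 1.03% of tags and took 6.65% ± 0.382 (SD, n = 5) of the RNA reads of all tags used, with 6.33, 6.75, 6.44, 7.28 and 6.47% in transfections 1 to 5. They held 1.23% of reads in the H520 input and 1.49% in the A549 input. The tags were chosen for their RNA level in these libraries, so a share above that of the input is given as a description. Of these tags, 1875 were at 1 or more in all 5 libraries.

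By range, the gain over the plasmid rose with activity, as the definition of the ranges requires, and the share of RNA shows how much each range weighed. The 4834 tags from 0.5 to 1 took 3.93% ± 0.0431 of RNA reads against 2.53% in the H520 input. The 1204 tags from 1 to 2 took 1.59% ± 0.0409 against 0.602%. The 719 tags from 2 to 3, fewer in number, took more, 2.62% ± 0.132 against 0.445%. The 204 tags from 3 to 4 took 1.67% ± 0.132 against 0.144%, and the 52 tags at 4 or more took 0.777% ± 0.101 against 0.0378% (SD, n = 5 in each case). With ranges set against the H520 input, the range from 2 to 3 therefore held the largest share of RNA among the ranges from 1 upward. That rank was not kept with ranges set against the A549 input. There, the range from 1 to 2 took 2.39% ± 0.0966 and that from 2 to 3 took 2.36% ± 0.116 (SD, n = 5). At the other end, 2627 tags from -1 to -0.5 took 0.947% ± 0.0165 of RNA against 1.59% in the H520 input, and 54 tags from -2 to -1 took 0.0114% ± 0.0004 against 0.0328%. No mean was under -2. When the ranges were set by the other 4 transfections and read in the one left out, tags at 4 or more took 0.818% ± 0.0868 and tags from 2 to 3 took 2.61% ± 0.165 (SD, n = 5). These ranges were still set against the same H520 input, so this reading could not show what the choice of input adds.

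**Figure D2:**
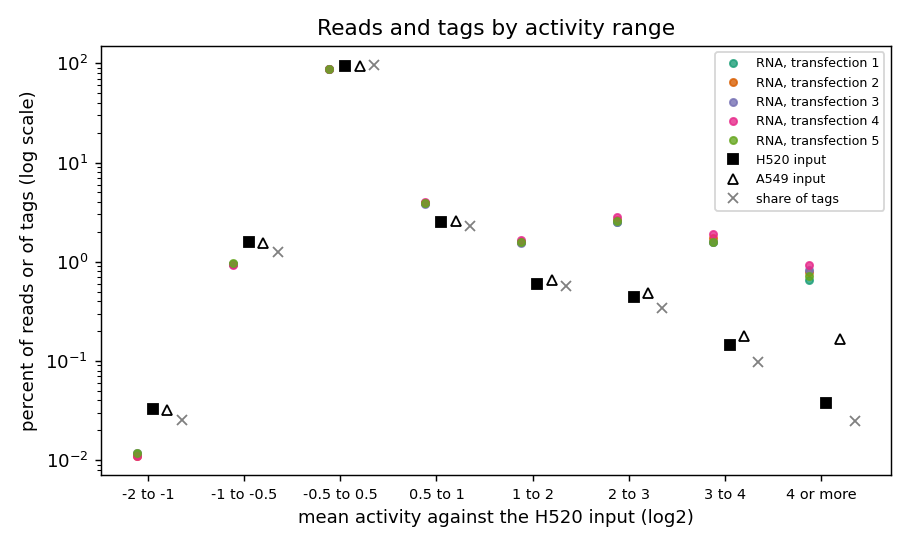
For each range of mean activity, the share of reads (log scale) is plotted in the 5 H520 DMSO libraries (coloured points), the H520 input (squares) and the A549 input (triangles), beside the share of tags (crosses). The RNA points lie above both inputs from 0.5 upward and below them under -0.5, and at 4 or more the A549 input (0.166%) stands well above the H520 input (0.0378%).

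The top of the range did not have the same height against both inputs. Of the 52 tags at 4 or more, 11 were at 4 or more against the A549 input, 5 from 3 to 4, and the other 36 below 3. The median input count of the 52 was 1488 in the H520 input and 9956 in the A549 input, while in the range from 2 to 3 it was 1433 and 1907. A set of 58 tags held at least 4-fold more of the A549 input than of the H520 input, and 36 of the 52 belonged to it. All 58 had an H520 activity of 3.14 to 5.00 against the H520 input, and 0.01 to 2.68 against the A549 input. A low H520 input count raises both the ratio that chose this set and its activity, so these values are a description.

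The 58 tags moved together between transfections. Their median activity was 3.74, 4.17, 4.32, 4.48 and 3.96 in transfections 1 to 5. Transfection 4 was the highest for 58 of 58 tags, and transfection 1 was the lowest for 57, the exception being lowest in transfection 5. Their share of RNA reads was 0.444, 0.566, 0.639, 0.690 and 0.516%, against 0.0264% of the H520 input and 0.189% of the A549 input. The RNA share, which does not rest on the choice of input, was thus above both plasmid libraries in each transfection. In the H520 BaP libraries their medians were 3.66, 4.15, 4.33, 4.29 and 3.87, and in A549 DMSO against the A549 input they ran from 3.60 to 5.35. Without them, tags at 1 or more took 6.12% ± 0.322 (SD, n = 5) of RNA reads, and the 16 tags left at 4 or more took 0.289% ± 0.0264.

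The 4 deeply read tags whose activity differed most between inputs came from this set, and they are printed so that their bases can be compared, with no stretch singled out.
Unequal tag 1: ggtcgttataagggc
Unequal tag 2: cggtacttgcaaggc
Unequal tag 3: ggccgtccaacgggc
Unequal tag 4: tgatgcggtaaaggc
The first had 44.9, 60.7, 67.5, 74.7 and 53.3 TPM in RNA of transfections 1 to 5, 3.07 TPM in the H520 input and 42.9 TPM in the A549 input. Every RNA value lay above both inputs, but by very different factors. Its activity was 4.15 ± 0.29 against the H520 input and 0.54 ± 0.29 against the A549 input (SD, n = 5). It was not called by edgeR against the H520 input, with an adjusted p of 0.060, nor against the A549 input, with an adjusted p of 1. For the 4 tags together, activity was 4.11 to 4.32 against the H520 input and 0.54 to 0.88 against the A549 input.

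**Figure D3:**
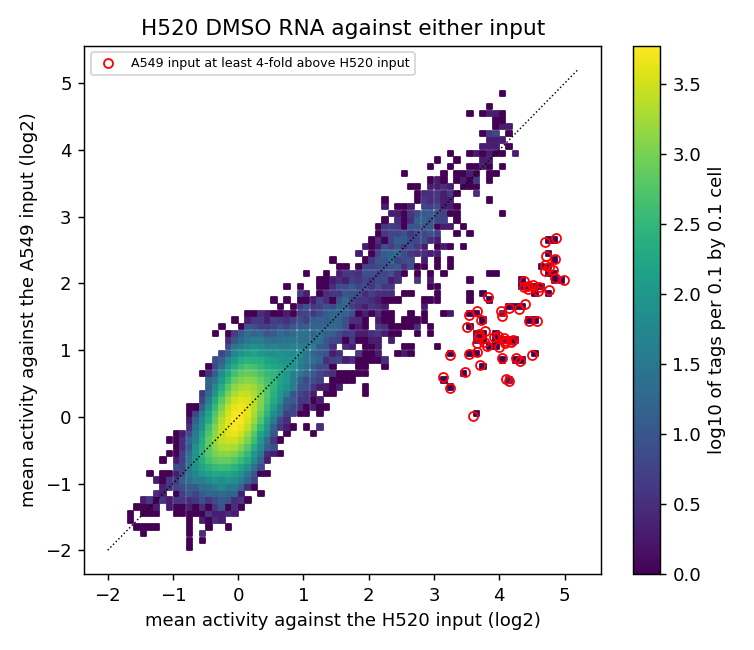
Mean activity of H520 DMSO RNA against the A549 input is plotted over that against the H520 input, with the colour giving the log10 number of tags per cell and red circles the 58 tags with at least 4-fold more A549 input. Most of the upper tail follows the dotted line of equal values, and the circled tags lie far below it.

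The highest tags whose rank held with both inputs were less variable. High tag 1 had 116, 125, 107, 141 and 113 TPM in RNA of transfections 1 to 5, against 6.69 TPM in the H520 input and 6.06 TPM in the A549 input. All 5 RNA values were more than 10-fold above both plasmid values. Its activity was 4.15 ± 0.15 (SD, n = 5), a 17.7-fold rise over the typical tag, and 4.27 ± 0.16 against the A549 input, with an edgeR adjusted p of 1.6e-21. The 6 high tags spanned only 4.05 to 4.15, with SDs of 0.15 to 0.18. Each was highest in transfection 4. In A549 DMSO against the A549 input the same 6 had activities of 2.44 to 2.71. They hold 7, 7, 7, 7, 6 and 5 G or C bases among the 12, where the mean of the pool is 5.73.

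Tags near the middle of each range give the scale of the rest. The tag agattactcgctggc, at the centre of the pool, had activities of -0.03, -0.01, -0.04, -0.03 and 0.08 in transfections 1 to 5. Tag gttgactttcggggc, typical of the range from 1 to 2, had 1.30, 1.37, 1.21, 1.32 and 1.34, and was called with an edgeR adjusted p of 0.00060. Each of these tags was chosen for its place in its range, so their order is a description. Tag gtaccggattagggc, typical of 2 to 3, had a mean of 2.46 ± 0.16, and ccgcgcatctttggc, typical of 3 to 4, had 3.31 ± 0.04 (SD, n = 5). The spread between transfections of a single tag ranged in these examples from 0.04 to 0.16. On the low side, tattgattaacgggc, typical of -1 to -0.5, had -0.56 ± 0.05 (SD, n = 5) against the H520 input and 0.04 against the A549 input, so its place below the pool rests on the input chosen.

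Against the H520 input, the tags at -1 or less nearly all shared 1 word. GGTAAGT was found on the listed strand of 217 tags, 0.103% of the pool, and of the 54 tags at -1 or less it was in 51. As background, GTAAGT is the textbook consensus of a 5′ splice site, where the spliceosome begins an intron. The word was chosen by its low value, as the lowest median among the 4396 words of 7 bases held by at least 100 tags, so no test is given. Tags that held it had a median activity of -0.58, with library medians of -0.56, -0.58, -0.61, -0.60 and -0.57, against a median of 0 in each library by construction. The 5 medians lay close together, and 123 of the 217 tags were under -0.5. Of the 22 tags called below, 21 held the word. Its reverse complement, ACTTACC, was in 367 tags, whose median was -0.03. The word on 1 strand was low and the same bases on the other strand were not. The limit and the input matter here: the word was in 123 of the 2681 tags under -0.5 (4.59%), and in 55 of the 555 tags at -1 or less against the A549 input (9.91%).

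The same tags were also read in other libraries. In A549 DMSO against the A549 input, which shares neither RNA nor input with the choice of the word, their library medians were -0.68, -0.70, -0.73, -0.65 and -0.60. In H520 BaP libraries, which share the H520 input, they were -0.60 to -0.55. All 5 medians in A549 DMSO lay below -0.5. With the same H520 DMSO RNA set against the A549 input the median was -0.62. The median was lowest where the word opened the tag. At start positions 1 to 6 it was -1.05, -0.64, -0.65, -0.41, -0.39 and -0.35, over 48, 53, 35, 25, 29 and 27 tags. With A after it, as GGTAAGTA, the word had a median of -0.87 over 72 tags.

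Single-base neighbours give the difference at each position of the word. The word was chosen for its low H520 value, so higher neighbours in H520 are a description. Tags with GGTAAGT formed 485 pairs with tags that differ at 1 position of the word and nowhere else, and the changed tag was higher in 90.9% of them, with a median difference of 0.52. For 221 pairs that kept the word and differed outside it, the median absolute difference was 0.29, against 0.54 for the changes inside. In A549 DMSO, which did not choose the word, the median difference over the 485 pairs was 0.63. The absolute differences there were 0.28 outside the word and 0.64 inside. By position in the word, counted from its 5′ end, the median rise was 0.58 for position 1, 0.58 for position 2, 0.67 for position 4, 0.57 for position 5, 0.47 for position 6 and 0.42 for position 7, while position 3 had only 3 pairs. No position with 30 or more pairs was without a rise. Tags with G2C had a median of -0.05 over 52 pairs, those with A5G stayed lower at -0.30 over 14 pairs, and those with G1A were at -0.20 over 29.

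Low tag 1 and some of its neighbours are printed to show the step, with the 7 positions of the word in capitals.
Unchanged: GGTAAGTaagcgggc
G1A: AGTAAGTaagcgggc
G2A: GATAAGTaagcgggc
A4T: GGTTAGTaagcgggc
A9C: GGTAAGTacgcgggc
G12C: GGTAAGTaagccggc
The unchanged tag had activities of -1.52, -1.82, -1.55, -1.67 and -1.46 in transfections 1 to 5, with 4.61, 3.65, 4.51, 4.09 and 4.81 TPM in RNA against 15.02 TPM in the H520 input and 14.7 TPM in the A549 input. Its mean level was 0.329-fold that of the pool, with little spread between libraries, with an edgeR adjusted p of 4.2e-07. With G1A the activity was -0.45 ± 0.09, with G2A -0.05 ± 0.07 and with A4T -0.12 ± 0.19 (SD, n = 5). Outside the word, it was -1.37 ± 0.07 with A9C and -1.03 ± 0.09 with G12C. Neighbours not printed were G2C, inside the word, at -0.05 ± 0.17 and G10T, outside it, at -1.42 ± 0.24 (SD, n = 5). With G10T the values ran from -1.68 to -1.10 and overlapped those of the unchanged tag. None of the 5 changed tags printed, inside or outside the word, overlapped the unchanged tag. The unchanged tag was picked as the lowest, so that its neighbours lie nearer 0 is no finding. The 3 printed tags changed inside the word lay above both printed tags changed outside it.

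The 3 tags at -1 or less without GGTAAGT were named after their values were seen. They are tagtcgataggtggc at -1.003 ± 0.14, tataacggtatgggc at -1.03 ± 0.08 and ttaacggtaggtggc at -1.23 ± 0.06 (SD, n = 5), and the last was the only called low tag without the word. The 6 low tags of the first list ranged from -1.64 to -1.44 against the H520 input, with edgeR adjusted p-values of 4.2e-07 to 3.2e-04, and from -1.77 to -1.48 against the A549 input.

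A second low word lay below the pool in H520 and near it in A549. TAACGG was on the listed strand of 860 tags, 0.407% of the pool, and had the lowest median among 6-base words held by at least 300 tags. Its letters match AACNG, the core bound by MYB-family factors, given as background only. The H520 DMSO library medians were -0.29, -0.28, -0.23, -0.27 and -0.28. In A549 DMSO they were -0.02, -0.05, -0.01, -0.03 and -0.04, and in H520 BaP -0.30 to -0.25. The H520 and A549 medians did not overlap, but the word was chosen by its H520 value, so the gap is a description. Of its 860 tags, 17.2% were under -0.5, against 1.27% of all tags. The reverse complement CCGTTA was in 1483 tags, with a median of -0.13 in H520 and -0.02 in A549. At start position 1 the median was -0.51 over 66 tags and at position 7 it was -0.14 over 202. TAACGG and GGTAAGT can overlap by their shared GG, as in low tag 6, and 4 tags at -1 or less held TAACGG. Changing 1 base of TAACGG gave a higher tag in 80.2% of 1432 pairs in H520, with a median difference of 0.23, and the median difference in A549 was 0.01. Among all 6-base words held by at least 100 tags, CTAGGG was the lowest, with a median of -0.32 over 215 tags. In A549 DMSO the median of those tags was -0.20.

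On the high side the leading word was TTGCGTCA, the 8-base word with the highest median among 12315 held by at least 30 tags. It was on the listed strand of 86 tags, 0.0407% of the pool. As background, TTGC is part of the site bound by C/EBP factors, and GTCA is part of the sites bound by CREB and AP-1 factors, all of which bind DNA as dimers. Library medians of tags that held it were 1.41, 1.25, 1.19, 1.39 and 1.48. Of the 86, 52 (60.5%) were at 1 or more, against 1.03% of all tags, and 45 were called above, where 0.756% of all tags were. Against the A549 input the median was 1.45. In A549 DMSO the library medians were 0.35 to 0.40 and 13 of 86 (15.1%) were at 1 or more, against 1.49% of all tags there. The H520 medians all lay above the A549 ones, again for a word chosen in H520. The reverse complement TGACGCAA was in 76 tags, with a median of 0.28 and 17.1% at 1 or more.

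Position mattered in the description of this word as well. At start positions 1 to 5 the medians were 0.998, 0.764, 2.17, 2.27 and 1.63, over 26, 20, 13, 14 and 13 tags. The tag with the highest activity among deeply read tags with the word is printed with its neighbours, positions counted from the start of the tag and the word in capitals.
Unchanged: cgaTTGCGTCAtggc
C1T: tgaTTGCGTCAtggc
C10A: cgaTTGCGTAAtggc
A11G: cgaTTGCGTCGtggc
T12G: cgaTTGCGTCAgggc
The unchanged tag had activities of 3.47, 3.39, 3.34, 3.47 and 3.66 in transfections 1 to 5. With C10A it was at 2.14 ± 0.16 and with A11G at 0.95 ± 0.08 (SD, n = 5). Outside the word, it was at 2.42 ± 0.22 with C1T and at 2.75 ± 0.10 with T12G. None of the 4 changed tags overlapped the unchanged one, which was picked for its high value, and C10A and C1T overlapped each other. Of the 4, A11G at the last base of the word was the lowest. Over all 204 pairs with a change inside the word, the changed tag was higher in 5.88%, and the median difference was -0.93 in H520 and -0.30 in A549. For 82 pairs that kept the word the median absolute difference was 0.25. The largest median fall was at position 8 of the word, -1.29 over 50 pairs.

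CGCCAT had the highest median among 6-base words in at least 300 tags. It was on the listed strand of 515 tags, 0.244% of the pool, and it holds GCCAT, the core bound by the zinc finger factor YY1, given as background. Library medians were 0.53, 0.57, 0.50, 0.59 and 0.54 in H520 DMSO, 0.56 to 0.63 in H520 BaP and 0.16 to 0.25 in A549 DMSO. The shift was moderate: 56 tags (10.9%) were at 1 or more, against 1.03% of all tags. Another 233 lay from 0.5 to 1, which is 4.82% of that range, while the word is in 0.244% of the pool. In A549 DMSO 12 of the 515 tags (2.33%) were at 1 or more, against 1.49% of all tags there. No tag used held the reverse complement ATGGCG. Among all 6-base words held by at least 100 tags, CATGGC was the highest, with a median of 0.56 over 155 tags. CGCCAT was chosen by its H520 value, so its pairs in H520 are a description. A change inside CGCCAT lowered the tag in most of 574 pairs, with a higher neighbour in 11.8%. The median difference was -0.46 in H520 and -0.16 in A549. In H520 the largest fall was at position 6, -0.52 over 98 pairs.

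The constant end of the tag could complete a word. Among the 313 five-base endings of the variable part held by at least 300 tags, AAGAT had the highest median, 0.43 over 350 tags, with library medians of 0.37 to 0.47. Joined to the constant end it reads AAGATGGC, which no tag holds inside its 12 variable bases. The same AAGAT elsewhere in the tag, in 1230 tags, had a median of -0.14. In A549 DMSO the tags ending in AAGAT had library medians of 0.22 to 0.33. The lowest ending was TAGGT, with a median of -0.21 over 417 tags.

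The high words were in a small part of the upper tail. TTGCGTCA was in 52 of the 2179 tags at 1 or more (2.39%) and CGCCAT in 56 (2.57%). Among the 256 tags at 3 or more, 1 held each. Most tags of the upper tail thus held neither word.

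**Figure D4:**
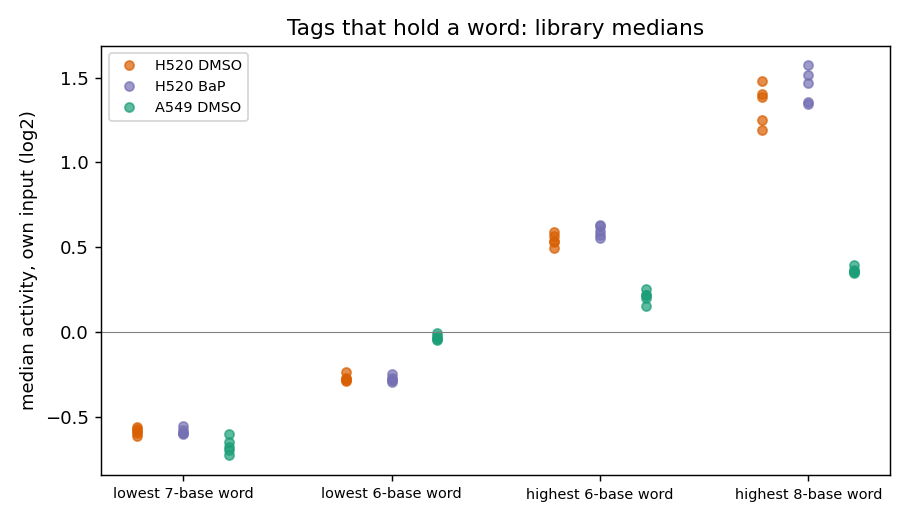
Median activity of the tags that hold a word is plotted for each library of H520 DMSO, H520 BaP and A549 DMSO, each against the input of its own line. The words stand in order of their H520 median, from the low 7-base word to the high 8-base word. The first is near -0.6 in all 3 groups, and the other 3 lie nearer 0 in A549.

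Activity also followed base composition across the pool. Tags with 2 G or C among the 12 variable bases had a median activity of -0.33, those with 5 had -0.04, those with 8 had 0.10 and those with 10 had 0.14, over 2229, 48482, 19226 and 624 tags. The rise was present in each of the 5 libraries, from -0.39 to -0.29 at 2 bases up to 0.11 to 0.18 at 10. Transfections 3 and 4 spanned more than the other 3. The A549 input gave -0.34 and 0.15 at the same ends, and A549 DMSO gave -0.13 and 0.02. Of tags with 2 G or C bases, 17.4% were under -0.5, against 0.160% of those with 10. The share at 1 or more changed less, between 0.481 and 1.19%. The range from -1 to -0.5 had a mean of 3.93 G or C bases, the middle range 5.74 and the range from 0.5 to 1 had 6.27, while the ranges from 1 upward had 5.73 to 6.23. By position, medians of the 4 bases differed most at positions 1 and 2, by 0.106 and 0.113, and least at position 10, by 0.012.

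**Figure D5:**
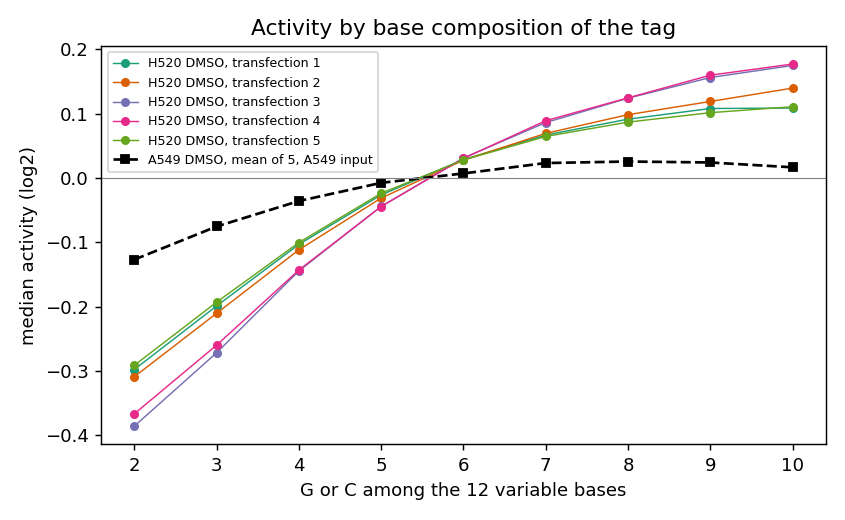
Median activity is plotted against the number of G or C bases among the 12 variable bases for each H520 DMSO library and, dashed, for the mean of the A549 DMSO libraries. All 5 H520 lines rise from left to right, with transfections 3 and 4 the steepest, and the A549 line is flatter.

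The share of RNA taken by active tags was compared between groups of libraries, in 3 comparisons with p-values adjusted over them. Tags at 1 or more took 6.65% ± 0.382 of reads in H520 DMSO and 15.3% ± 3.43 in A549 DMSO (SD, n = 5 each), where active tags were chosen in each line against its own input. Active tags numbered 2179 in H520 and 3143 in A549, chosen by their mean in the same libraries. The A549 libraries had 16.5, 11.6, 11.8, 17.1 and 19.4%. The groups did not overlap, and a two-sided exact permutation test gave p = 0.0079, the smallest that 5 against 5 allows, and an adjusted p of 0.024. The test permuted finished shares and did not choose the tags anew, so the p-values of this comparison are a description. Without the 58 tags of unequal inputs the shares were 6.12% ± 0.322 and 11.6% ± 1.91, still without overlap. With 1 input for both lines the difference was -8.49 percentage points (A549 input) and -8.99 (H520 input), each with an exact permutation p of 0.0079, against -8.62 with each line's own input. Cell line and input version (v1 for A549, v2 for H520) differ together here and cannot be told apart. The exposure times of 42 h in H520 and 18 h in A549 are those of BaP, and whether the DMSO times differed likewise was not settled.

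With BaP, H520 tags at 1 or more in DMSO took 6.67% ± 0.271 of reads against 6.65% ± 0.382 with DMSO (SD, n = 5 each). The values overlapped, and the exact permutation p was 0.913 (adjusted 0.913), so no difference was seen beyond the spread between transfections. The ranges were set in the DMSO libraries.

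The spread of activity in the bulk of tags depended on the input. Each line against its own input, the 5th to 95th percentile distance was 0.838 ± 0.0185 in H520 DMSO and 0.919 ± 0.0974 in A549 DMSO (SD, n = 5 each), with an exact permutation p of 0.024 (adjusted 0.036). The ranges overlapped, at 0.817 to 0.863 in H520 and 0.857 to 1.09 in A549. Without A549 transfection 3, the widest library, the difference of -0.0806 became -0.0377 (exact permutation p = 0.048), and a minimum of 500 counts per input gave -0.0479 (exact permutation p = 0.135). With the A549 input for both lines the direction turned, and H520 was wider by 0.347 (exact permutation p = 0.0079). With the H520 input for both, H520 was 0.380 narrower.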

How the data were processed

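Per the labels' protocols, polyadenylated RNA of transfected cells was copied into cDNA and the tag region was amplified, and plasmid DNA was amplified likewise as input. No molecular identifiers are described, so reads are not independent molecules. The submitters' processing notes name bcl2fastq, and the matching of reads to tags is not described in them. The authors, per the file headers, deposited a read count per tag, the library total and a TPM value, and the deposited TPM equals the count divided by the total. Members, lists and words were chosen with earlier results of these data known.

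Counts were joined on the tag, with 0 where a library lists none. Calls came from edgeR 4.0.16 (R 4.3.3; glmQLFit, glmTreat at 2-fold, Benjamini-Hochberg), with offsets that set each library's median ratio to the H520 input at 0, on 5 RNA libraries and 1 input. limma 3.58.1 and DESeq2 1.42.0 were alternatives, and the fit was checked on simulated counts. Library-level comparisons used two-sided exact permutation tests over libraries. Pairs of H520 DMSO libraries differed by more than sampling noise (chi-square 5.44 to 11.1 per degree of freedom), so none was a copy.

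Named tags had at least 500 counts in each input: the 6 highest and 6 lowest calls by the less extreme of both activities, the tag closest to each range's median, and the 4 that differed most between inputs. Words of 6, 7 and 8 bases were searched in the 12 variable bases and chosen by median activity. Alternatives covered scaling, count minimum, pseudocount, input, thresholds, the replicate block and leaving out each library. The A549 BaP libraries were not used here.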

Additional observations from a re-analysis of the deposited data

Results flagged for a closer look

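In a search of 48 groups of 5 values, in which chance alone marks about 1 in 20, a library of H520 DMSO stood far from the other 4 in 6 measures. Transfection 4 accounted for 3 of these. Its 0.1th percentile of activity was -1.05, against -0.85 to -0.80 in the others. It had 292 tags at -1 or less, against 54 to 76. Its share of reads in tags of activity -1 to -0.5 was 0.918%, against 0.950 to 0.961%.

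Of single tags, agattactcgctggc, the centre of the pool, was at 0.0761 in transfection 5 and between -0.04 and -0.01 elsewhere. Tag gcattcttaactggc, typical of the range from 0.5 to 1, was at 0.786 in transfection 1 and between 0.57 and 0.60 elsewhere. Tags with TAACGG had a median of -0.234 in transfection 3 and of -0.29 to -0.27 elsewhere.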

How the results depend on the processing

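Calls above the median numbered 1599, and 1342 to 1953 under every alternative but the 1.5-fold threshold, which gave 2824. Calls below numbered 22, with 161 from the A549 input, 120 at 1.5-fold and 15 to 30 otherwise. The percentile distance (0.838) was 0.973, 0.736 and 0.423 at pseudocounts of 0.1, 1 and 5 TPM, 1.27 against the A549 input and 0.943 against the mean of both. Tags at -1 or less (54) numbered 101, 30 and 1 at those pseudocounts, 83 without centring, 555 against the A549 input and 97 against the mean of both. Tags at 1 or more (2179) fell to 1236 at a pseudocount of 5, and their share of RNA (6.65%) to 5.74%. Without the 58 tags of unequal inputs, chosen after the values were seen, that share was 6.12%. The share at 4 or more (0.777%) was the least stable: 0.883% with ranges from the A549 input, 0.208% at a pseudocount of 5, 0.908% at 500 counts, 0.289% without the 58 tags and 0.610 to 0.945% when 1 library was left out, the lowest without transfection 4. The cause was not tested.

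The spread comparison turned to 0.347 with the A549 input and was -0.0479 (exact permutation p = 0.135) at 500 counts. Whether transfection numbers pair the libraries was not settled: deviations of same-numbered H520 DMSO and BaP libraries correlated across tags at 0.0439 to 0.159, all positive but over 0.1 in 1 of 5, while transfection 1 had the lowest and transfection 4 the highest active share with DMSO and with BaP alike. For same-numbered H520 DMSO and A549 DMSO libraries the correlations were -0.101 to -0.00815. In a replicate block the H520 BaP difference of 0.0136 had an exact permutation p of 0.812, and the differences of -8.62 percentage points and -0.0806 had exact permutation p-values of 0.0625, the smallest that 5 pairs can give, and 0.125. Of the called named tags, none changed sign; agattactcgctggc and tattgattaacgggc, which were not called, did so under alternatives that include the A549 input (0.17 and 0.04). Rare tags are limited by depth, since the pseudocount is worth 133 H520 input counts and the minimum is 100.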

Other observations

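Transfection 4 of H520 DMSO held a separate group of low tags. Against the mean of the other 4 libraries, 1011 tags (0.478% of those used) were lower by 0.5 or more there and 12 were higher by as much. In transfections 1, 2, 3 and 5 the low counts were 339, 36, 44 and 217 and the high counts 175, 27, 29 and 138. The deviations in transfection 4 had a second peak: 105 tags lay from -0.5 to -0.4, 83 from -0.6 to -0.5 and 274 from -0.9 to -0.8. The 1011 tags had a median activity of -0.81 in transfection 4, which is 0.569-fold, and of 0.00, 0.01, 0.01 and 0.00 in the other 4. In the 5 H520 BaP libraries their medians were 0.00 to 0.01 and in A549 DMSO 0.02 to 0.05.

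The group was chosen by its value in transfection 4, so that value is no test. Its tags took 0.210% of reads in transfection 4 and 0.425 to 0.427% in the other 4 libraries, against 0.449% of the H520 input. Their median H520 input count was 987, and in the other libraries the low tags had medians of 283 to 343. They had a mean of 5.73 G or C bases, as did the pool (5.73), and 0 of them held GGTAAGT. None was called above or below by edgeR in the test of all 5 libraries, where 0.756% of all tags were called above and 0.0104% below. Without them, transfection 4 had 66 tags at -1 or less, against 54 to 76 in the other 4 libraries, and its 0.1th percentile was -0.81.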
